A study of Mus musculus with 10 samples.

Results

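The hypoxia response and glycolysis module was a list of 31 mouse genes, matched by symbol to the gene annotation of the array. Of these, 28 had at least 1 probe set that the annotation assigns to a single gene, and all 28 passed the filter on dim genes. The other 3 (Bnip3l, Eno1 and Gpi1) were not analysed here. Each gene was read from its brightest probe set on average. In all, 18193 genes had a probe set and 13644 were tested.

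The arrays measured total RNA of F2 mice, the second generation of a cross between the C57BL/6 (B6) and BALB strains. There were 8 cystic fibrosis knockouts, made to lack Cftr, the gene of an epithelial chloride channel, and 2 controls. The titles mark 5 knockouts with the letter H and 3 with L. The letters are not spelled out. Variable weight is named in the series title. Both control titles hold the letters D and W, and whatever these code cannot be told apart from the knockout. Each title also holds M or F (6 and 4 arrays) and an animal number. M stands on control replicate 2, 4 of 5 knockouts H and 1 of 3 knockouts L, and F on control replicate 1 and the rest. The numbers fall in a lower range, with both controls, knockouts H replicates 4 and 5 and knockout L replicate 3, and an upper range, with the other 5 knockouts. The sources used here give no age, no Cftr allele and no genotype of the controls at Cftr. Nothing but its own number says that a sample is a separate animal, and p-values therefore reflect the spread among these 10 samples, which may be technical.

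The labels name whole right lung, while all 10 arrays were rich in transcripts of the small intestine. The gut galectin Lgals4 ranged from 6595 to 7301 and the ileal bile acid carrier Fabp6 from 3125 to 5715. Lung transcripts were present beside them. Sftpc, a surfactant protein of alveolar cells, ranged from 1099 to 4169, while the ciliated cell factor Foxj1 (14.5 to 21.4) lay near the array medians of 18.4 to 18.9. Cftr itself read 19.7 to 35.4 in the 8 knockouts and 131 and 137 in the controls. All values are linear intensities, whose size depends on the probes, so that levels are compared between arrays and not between genes.

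Cells answer a lack of oxygen through the hypoxia-inducible factors. Prolyl hydroxylases of the Egln family mark the alpha subunit for destruction while oxygen is plentiful. When oxygen falls, the stabilized subunit pairs with Arnt, binds DNA at hypoxia response elements with the core ACGTG, and raises genes of glucose uptake, glycolysis, blood vessel growth and oxygen sensing itself. The intestinal epithelium lives in a steep oxygen gradient between its blood supply and the gut lumen, and this response is active there under resting conditions.

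Promoters are printed here for the 6 members with adjusted p-values under the threshold within the lower number range. These 6 were picked by their results in these same data. Each is shown as the 250 bases before the gene start, 5′ to 3′ on the gene's strand, from RefSeq (GRCm38.p6). Capitals mark ACGTG, or CACGT, the same core read on the other strand.
Ero1a, chr14:45318573-45318822, minus strand: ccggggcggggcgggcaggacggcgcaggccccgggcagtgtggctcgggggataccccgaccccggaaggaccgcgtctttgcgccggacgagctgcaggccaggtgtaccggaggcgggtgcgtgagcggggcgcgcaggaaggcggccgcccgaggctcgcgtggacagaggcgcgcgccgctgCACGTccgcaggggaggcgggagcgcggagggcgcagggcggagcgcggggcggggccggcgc
Egln3, chr12:54203875-54204124, minus strand: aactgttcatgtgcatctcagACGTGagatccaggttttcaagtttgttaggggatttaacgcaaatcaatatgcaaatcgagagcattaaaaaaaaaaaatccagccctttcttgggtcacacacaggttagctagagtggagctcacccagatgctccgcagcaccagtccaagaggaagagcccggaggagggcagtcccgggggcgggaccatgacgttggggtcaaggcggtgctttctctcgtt
Slc2a1, chr4:119108495-119108744, plus strand: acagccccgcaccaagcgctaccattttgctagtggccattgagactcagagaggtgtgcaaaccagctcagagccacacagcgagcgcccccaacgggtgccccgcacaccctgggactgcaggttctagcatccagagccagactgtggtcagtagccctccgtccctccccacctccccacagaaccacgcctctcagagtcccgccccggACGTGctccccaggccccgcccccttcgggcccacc
Hk2, chr6:82774455-82774704, minus strand: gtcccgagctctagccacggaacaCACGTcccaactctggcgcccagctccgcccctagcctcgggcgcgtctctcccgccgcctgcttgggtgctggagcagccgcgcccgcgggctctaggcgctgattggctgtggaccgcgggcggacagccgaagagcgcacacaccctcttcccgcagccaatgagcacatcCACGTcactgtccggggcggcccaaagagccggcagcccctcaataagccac
P4ha1, chr10:59323046-59323295, plus strand: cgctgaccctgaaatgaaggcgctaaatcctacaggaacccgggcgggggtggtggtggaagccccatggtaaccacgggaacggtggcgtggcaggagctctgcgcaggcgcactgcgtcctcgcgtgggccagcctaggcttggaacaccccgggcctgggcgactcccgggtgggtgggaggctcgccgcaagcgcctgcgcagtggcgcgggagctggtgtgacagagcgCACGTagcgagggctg
Pgk1, chrX:106186850-106187099, plus strand: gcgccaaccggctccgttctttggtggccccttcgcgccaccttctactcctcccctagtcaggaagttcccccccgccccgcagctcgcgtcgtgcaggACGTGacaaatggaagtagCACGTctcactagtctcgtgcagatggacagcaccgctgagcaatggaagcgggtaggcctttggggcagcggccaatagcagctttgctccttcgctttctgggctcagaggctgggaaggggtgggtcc
Each of the 6 windows holds the core at least once. Its first base lies 63 bases before the start in Ero1a, 229 in Egln3, 36 in Slc2a1 and 16 in P4ha1, and there are a pair of matches in Hk2 (226 and 52) and in Pgk1 (150 and 131). Windows were found for 26 of the 28 members, all but Ndrg1 and Slc2a3, with up to 3 windows a gene. On either strand, 18 of the 26 (69.2%) held ACGTG in at least 1 window. The share was 24% of the 10945 tested genes with a window and 18.5% of all 27025 genes with one. The list names genes of the hypoxia response, so a high share could be expected before any array was read. Members with small knockout versus control estimates held the core too, among them Vegfa (0.05), Egln1 (0.13) and Ankrd37 (-0.20). The core is therefore not particular to the 6. Member windows had a median GC content of 63.4% and those of tested genes 59.2%, and the core itself contains a CG step, so base composition differs along with the share. A match describes these letters only and is no evidence that a factor binds there.

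Knockout versus control addressed how these genes differed between the groups. In it the loss of Cftr cannot be told apart from whatever the letters D and W code. The estimates of the module were mostly higher in knockouts, with a single member past the threshold. Ero1a rose 2.65-fold (limma adjusted p = 0.0337), and it was the only one of 28 members with an adjusted p under 0.05 over all genes. That is 3.57% of the members, where 4.31% of all genes tested passed (207 higher and 381 lower, 1.52% and 2.79%), so the count of calls does not set the module apart. The estimates did lie on one side. They were above 0 for 26 of 28 members (92.9%), compared with 48.7% of all genes, and their median was 0.36 on the log2 scale against -0.0047. Before adjustment 12 members (42.9%) had p under 0.05, each of them higher, compared with 8.66% of all genes that were higher at that level. The members share the same arrays and are not independent of each other. They leaned to one side in the other contrasts as well. Between M and F, 24 of 28 estimates lay above 0, with a median of 0.14. That contrast draws in part on the controls, 1 F and 1 M. With either control left out, it had 20 of 28 above 0 (median 0.06). Knockout versus control then had 24 of 28 without control replicate 1 and 26 of 28 without control replicate 2 (medians 0.25 and 0.49). Below 0 lay 21 of 28 between the number ranges (median -0.12) and 19 of 28 between H and L (median -0.15). The count of estimates on one side therefore does not by itself set the knockout contrast apart.

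**Figure D1:**
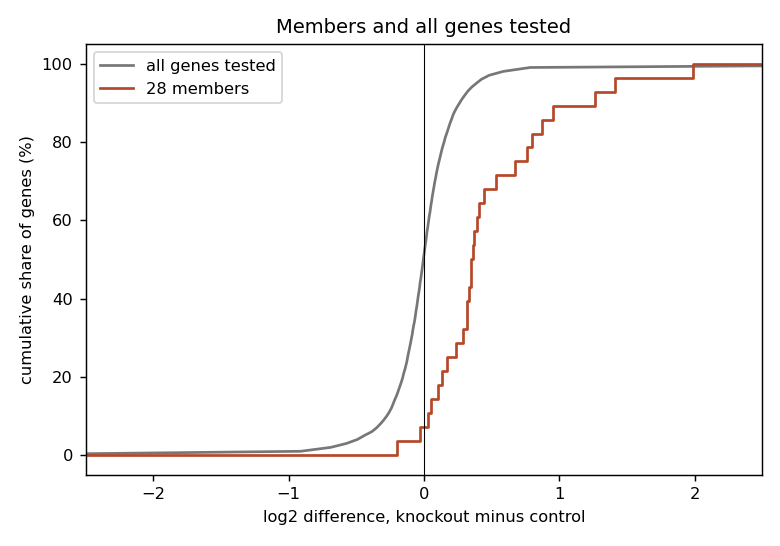
Cumulative share of genes (y axis, percent) by log2 difference between knockouts and controls (x axis) for all 13644 genes tested and for the 28 members. The curve of the members lies to the right, with a median of 0.36 against -0.0047, and 2 members lie below 0.

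These estimates rest on few arrays. With covariates for number range and letter, the difference came from the 3 knockouts and 2 controls of the lower range, and the other knockouts informed the letter and the spread. A fit within the lower range alone used only those 3 knockouts and 2 controls, and left out the letter covariate as well. In it, 6 members passed (Ero1a, Egln3, Hk2, P4ha1, Pgk1 and Slc2a1), all higher. They were 21.4% of the members, beside 7.43% of all genes called and 2.95% called higher. On all 10 arrays without covariates, 6 members passed as well, with P4ha2 in place of Slc2a1. Beside them, 10% of all genes were called and 4.59% called higher. With the number range as the only covariate Ero1a alone passed, beside 5.15% of all genes and 1.95% higher. The call of Ero1a was lost in 9 of 21 alternative settings, 7 of which left out 1 array (knockout H replicate 4 or 5, any knockout L, or either control), and its adjusted p ranged from 0.00593 to 0.272 over all 21. Without knockout H replicate 2, Egln3 and Pgk1 passed beside Ero1a, all higher, where 5.96% of all genes passed and 2.39% were higher. Without knockout H replicate 3, P4ha1 and Pgam1 passed beside Ero1a, again higher, where 4.44% of all genes passed and 1.63% were higher. Without control replicate 1, no gene passed and 2 members in place of 12 had an unadjusted p under 0.05. Control replicate 1 was below control replicate 2 for 26 of the 28 members, beside 46.5% of all genes tested, and the median estimate was 0.25 without control replicate 1 and 0.49 without control replicate 2. The controls also differed in the letter (F in control replicate 1, M in control replicate 2) and in tissue markers. Control replicate 1 had the lowest sums of all arrays for smooth muscle (6746, beside 13928 in control replicate 2) and for colon epithelium (4101, beside 7184), and Retnlb, a secreted protein of goblet cells, read 20.2 in it and 512 in control replicate 2. The part of the letter and of these markers in the values of control replicate 1 was not tested.

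Some markers of epithelial and other cell types moved with the same contrast. The summed intensity of 14 crypt and cycling cell markers was 3750 and 4265 in the controls and 6160 to 7028 in the knockouts. Of the 14, 3 rose past the threshold (Olfm4, Prom1 and Cd44) and none fell past it, while 4 had estimates below 0. Olfm4 (mean 711 in the controls, 1470 in the knockouts) and Prom1 (556 and 1392) made up much of the difference in the sum. The sum of 16 enterocyte markers was 47477 and 49453 in the controls and 30864 to 40148 in the knockouts. Past the threshold, 4 of 16 were lower (Fabp2, Vil1, Anpep and Cdx2) and none higher, while 4 others had estimates above 0. Of 6 Paneth cell markers 1 rose (Pla2g2a), and 5 of the 6 had estimates above 0. Their sums of 18960 and 21167 in the controls lay below the 25002 to 33726 of the knockouts. Pla2g2a by itself read 1950 and 2042 in the controls and 6327 to 10080 in the knockouts, and made up a large part of that gap. Of 10 goblet cell markers 2 rose (Agr2 and Retnlb) and 3 had estimates below 0, while the sums overlapped (38517 and 38774 in the controls, 34994 to 51839 in the knockouts). Of 7 fibroblast markers 1 rose (Lum) and all 7 had estimates above 0, with sums of 2573 and 3082 in the controls and 2933 to 4695 in the knockouts. Of 10 macrophage and neutrophil markers 2 rose (Cd14 and Mrc1), 8 had estimates above 0 and 2 below. Their sums were 2297 and 2831 in the controls and 1902 to 4177 in the knockouts. No alveolar and club cell marker passed (13 of 15 above 0), and no endothelial marker (9 of 11). None of 10 lymphocyte markers passed in limma, and all 10 had estimates below 0, with sums of 3873 and 4132 in the controls and 2610 to 5510 in the knockouts. In whole tissue, fewer cells of a type and less RNA per cell cannot be told apart. The part of these shifts in the values of the module was not tested.

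**Figure D2:**
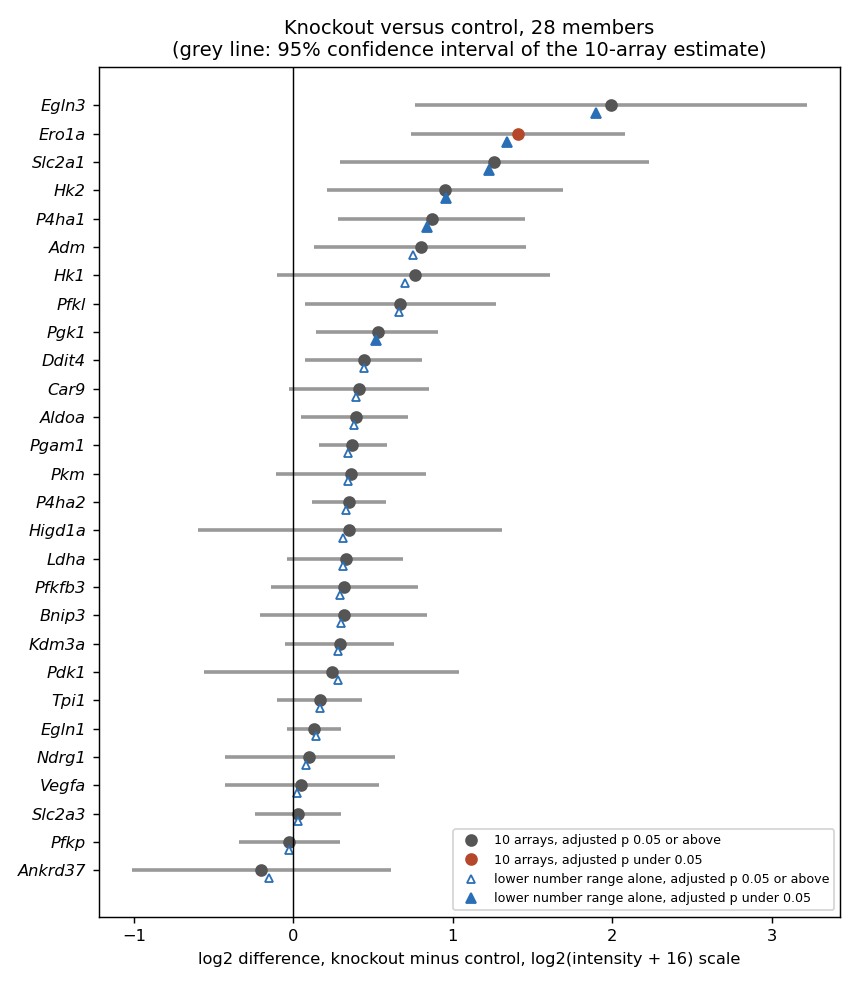
Log2 difference between knockouts and controls (x axis) of each of the 28 members (y axis), as the estimate from 10 arrays with its 95% confidence interval (circles and grey lines) and the estimate from the lower number range alone (triangles); colour and fill mark adjusted p under 0.05. Ero1a is the 1 member past the threshold on 10 arrays, and 6 members are past it within the lower range.

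Neither of the 2 oxygen sensors passed over 10 arrays, and Egln3 passed within the lower range. Egln3, the prolyl hydroxylase best known for being induced by hypoxia, read 130 and 275 in the controls, 449, 275, 1224, 696 and 803 in knockouts H replicates 1 to 5 and 1029, 420 and 764 in knockouts L replicates 1 to 3. All 8 knockouts lay above both controls, though knockout H replicate 2 exceeded control replicate 2 by less than 1 unit of intensity. The log2 difference of 1.99 ± 0.54 (SE) was the largest of the module and did not pass over 10 arrays (limma adjusted p = 0.0779), while within the lower range it was 1.90 ± 0.25 (limma adjusted p = 0.00718). A second Egln3 probe set gave 1.69. Egln1, the main oxygen sensor of most tissues, read 171 and 175 in the controls and 170 to 208 in the knockouts, and its estimate of 0.13 (95% confidence interval -0.04 to 0.30) did not pass.

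Among the oxidases of the secretory pathway, Ero1a re-oxidizes the protein disulfide isomerase that forms disulfide bonds in new proteins. Its intensities were 129 and 194 in the controls, and in the knockouts the lowest was 301, the median 408 and the highest 731. Every knockout stood above both controls and the groups were well apart, at 431 ± 137 (SD, n = 8) and 161 ± 46.0 (n = 2). The log2 difference was 1.41 ± 0.30, and the other Ero1a probe sets gave 1.63 and 1.71. P4ha1 and P4ha2 are the catalytic subunits of the enzymes that hydroxylate proline in collagen. P4ha1 read 30.2 and 52.4 in the controls and 55.9 to 117 in the knockouts, again without overlap (log2 difference 0.87 ± 0.26, limma adjusted p = 0.101, and 0.0280 within the lower range). P4ha2 was dim, with 13.1 and 17.2 in the controls and 20.4 to 31.8 in the knockouts, close to the array medians. Its estimate was 0.35 ± 0.10 (limma adjusted p = 0.0963).

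**Figure D3:**
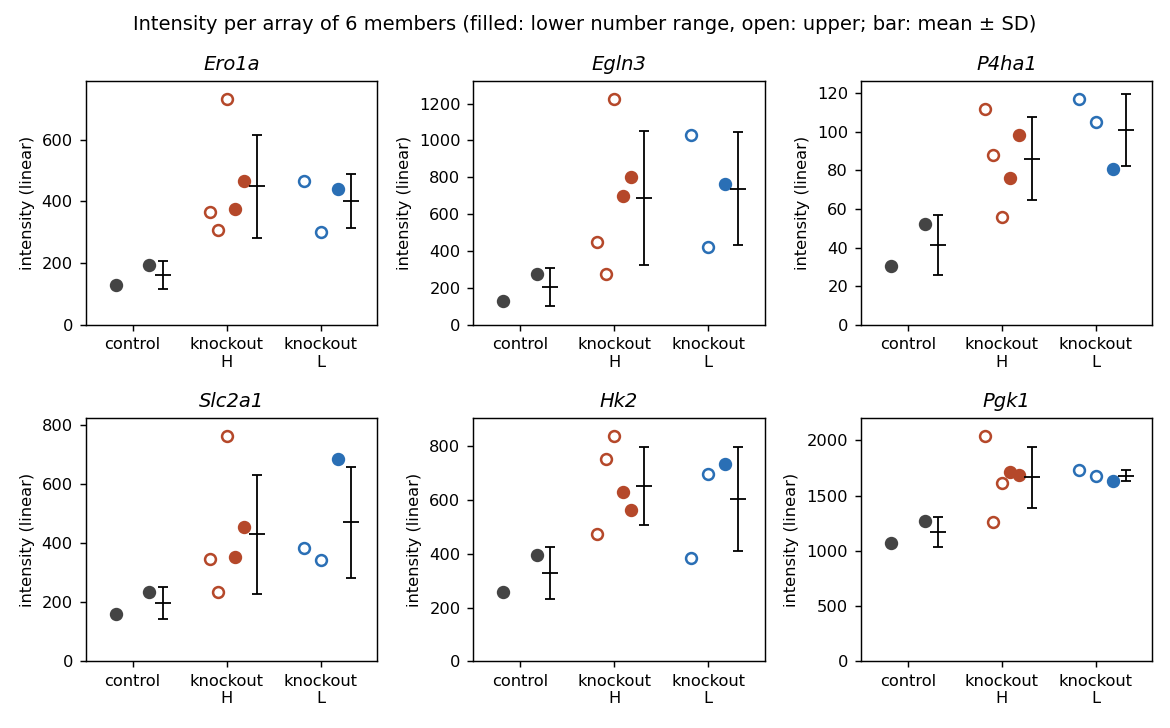
Linear intensity (y axis) of 6 members on each of the 10 arrays, by group (x axis); filled points lie in the lower and open points in the upper number range, and bars give the group mean ± SD. For Ero1a, Egln3 and P4ha1 the 8 knockouts lie above both controls, while for Slc2a1, Hk2 and Pgk1 1 knockout lies below control replicate 2.

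For glucose entry, the transporter Slc2a1 (GLUT1) read 160 and 236 in the controls, 348, 235, 763, 352 and 455 in knockouts H and 383, 343 and 685 in knockouts L. Knockout H replicate 2 lay between the controls, close to replicate 2, and the other 7 knockouts lay above both. The log2 difference was 1.26 ± 0.43 (limma adjusted p = 0.144, and 0.0321 within the lower range). Slc2a3 (GLUT3), a transporter of neurons and white blood cells, lay near background on every array (8.75 to 16.4) and could not inform a difference. Hexokinases trap glucose in the cell. Hk2, the inducible form, read 259 and 395 in the controls, 475, 753, 838, 628 and 562 in knockouts H and 383, 697 and 734 in knockouts L, so that knockout L replicate 1 lay between the controls. The estimate was 0.95 ± 0.33 on the log2 scale (limma adjusted p = 0.147, and 0.0208 within the lower range). Hk1, the housekeeping form, overlapped between groups (62.2 and 127 in the controls, 62.2 to 201 in the knockouts) and had an estimate of 0.76 ± 0.38 that did not pass.

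The enzymes of glycolysis proper had smaller estimates than Egln3, Ero1a and Slc2a1. Among all genes tested, Pfkl (0.67) and Pgk1 (0.53) still lay above the 97th percentile of the estimates (0.481), and the other measured enzymes below it. Of the 5 measured members of its upper part, 4 were above 0 and none passed. Pfkl, the liver-type phosphofructokinase, read 146 and 266 in the controls and 167 to 399 in the knockouts (0.67 ± 0.27, limma adjusted p = 0.209). Aldoa, aldolase A, read 1475 and 1811 in the controls and 1648 to 2373 in the knockouts (0.39 ± 0.15). Its probe set carries the suffix the array maker gives to sets whose probes also match other transcripts, as glycolytic genes with many pseudogenes often do. Pfkfb3, which makes the activator of phosphofructokinase, and Tpi1, triose phosphate isomerase, had estimates of 0.32 and 0.17. Pfkp, the platelet-type phosphofructokinase, read 903 and 1093 in the controls and 871 to 1236 in the knockouts, with an estimate of -0.03 and a confidence interval from -0.34 to 0.29. Its other probe sets gave 0.31 and -0.08.

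In the lower part of glycolysis and at the fate of pyruvate, all 5 measured members had estimates above 0, from 0.24 to 0.53, and none passed. Pgk1, phosphoglycerate kinase, read 1074 and 1269 in the controls, 2042, 1265, 1618, 1715 and 1688 in knockouts H and 1735, 1678 and 1634 in knockouts L. Again knockout H replicate 2 was the 1 knockout not above both controls. The log2 difference was 0.53 ± 0.17 (limma adjusted p = 0.123, and 0.0214 within the lower range). Pgam1, phosphoglycerate mutase, read 711 and 806 in the controls and 778 to 1032 in the knockouts (0.37 ± 0.10, limma adjusted p = 0.0628). The muscle-type pyruvate kinase gene Pkm and the lactate dehydrogenase gene Ldha had estimates of 0.36 and 0.33, with Ldha at 3225 and 3692 in the controls and 3244 to 4789 in the knockouts. Pdk1, the kinase that shuts pyruvate out of the mitochondrion, read 78.2 and 78.7 in the controls and 40.1 to 130 in the knockouts, with knockout H replicate 2 lowest by far.

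**Figure D4:**
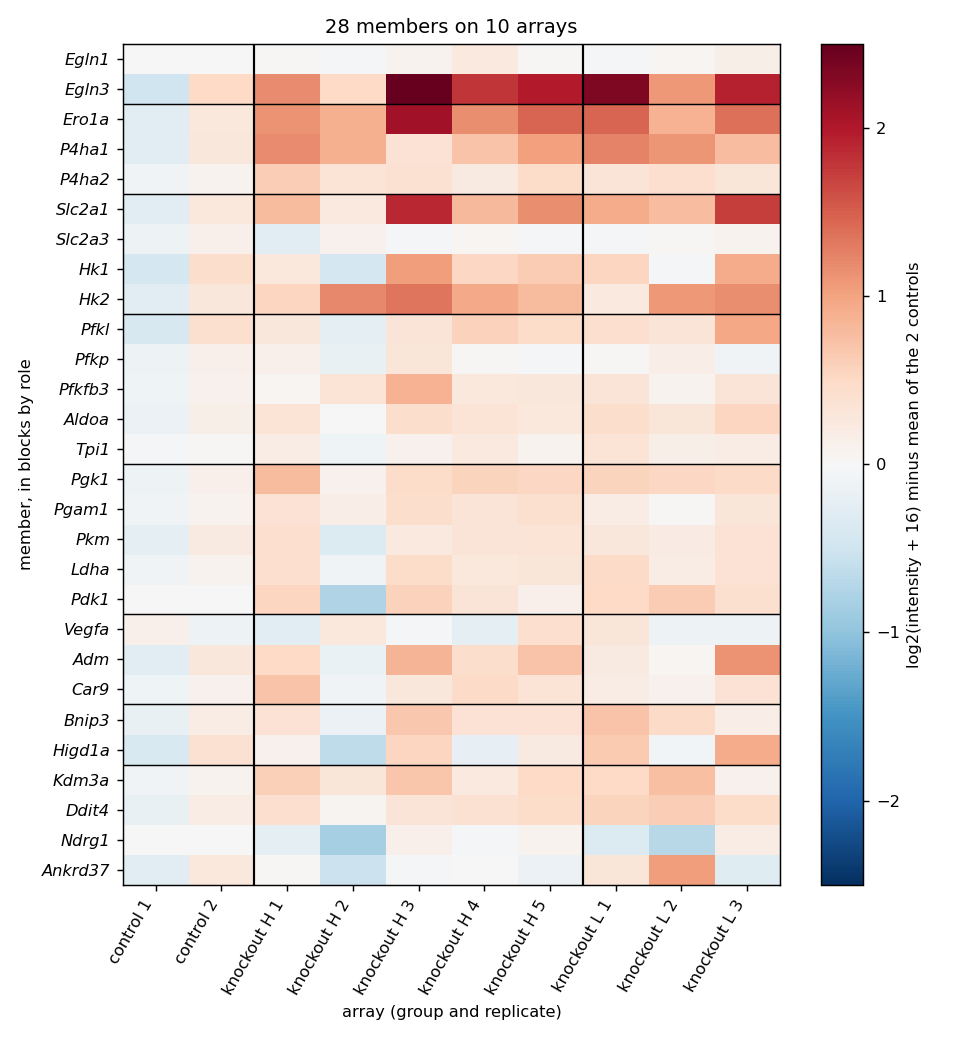
Difference of log2(intensity + 16) from the mean of the 2 controls (colour) for the 28 members (rows, in blocks by role) on the 10 arrays (columns). In the rows of Egln3, Ero1a, P4ha1, P4ha2 and Kdm3a all 8 knockouts lie above both controls, and knockout H replicate 2 lies below both for Pdk1, Pkm, Ndrg1 and Higd1a, among others.

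None of the 3 secreted and pH-related members passed. Vegfa, the growth factor of blood vessels and a classic target of the hypoxia-inducible factors, read 75.8 and 61.1 in the controls and 52.8 to 96.7 in the knockouts. Its estimate was 0.05 on the log2 scale, with a confidence interval from -0.43 to 0.54. Adm, the vasodilator adrenomedullin, read 25.3 and 45.3 in the controls and 28.9 to 93.1 in the knockouts (0.80 ± 0.30, limma adjusted p = 0.177). Car9, a membrane-bound carbonic anhydrase, read 214 and 253 in the controls and 219 to 392 in the knockouts, with an estimate of 0.41.

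Of the mitochondrial members, Bnip3, which marks mitochondria for removal, read 141 and 189 in the controls and 147 to 278 in the knockouts (0.32 ± 0.23). Higd1a, a protein of the respiratory chain, varied widely within both groups, from 485 and 839 in the controls to between 407 and 1225 in the knockouts (0.35 ± 0.42). Among regulators and stress proteins, Kdm3a, a histone demethylase, read 107 and 122 in the controls and 124 to 202 in the knockouts without overlap (0.29 ± 0.15, limma adjusted p = 0.334). Ddit4, an inhibitor of the growth kinase mTOR, read 136 and 180 in the controls and 166 to 247 in the knockouts (0.44 ± 0.16, limma adjusted p = 0.176). Ndrg1, a stress protein of differentiating epithelium, read 353 and 345 in the controls and 190 to 399 in the knockouts, with an estimate of 0.10. Ankrd37, an ankyrin repeat protein, had an estimate of -0.20 and spread from 33.5 to 132 over the knockouts.

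In all, 5 of the 28 members had every knockout above both controls (Egln3, Ero1a, Kdm3a, P4ha1 and P4ha2). This is 17.9%, beside 10% of all genes tested. No member had every knockout below both controls, beside 11.7% of all genes. Hk2, Kdm3a and Tpi1 lie on chromosome 6, as Cftr does. Whether strain alleles on that chromosome differed between the groups was not tested.

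The related lists held calls in both directions. Of 17 tested genes on a list of factor subunits and oxygen sensing, Hif1a was the 1 past the threshold, and the median was -0.02. Hif1a, the alpha subunit of the factor, read 178 and 256 in the controls, 319, 307, 618, 518 and 508 in knockouts H and 417, 319 and 500 in knockouts L. All knockouts lay above both controls, and the transcript rose 2.36-fold (log2 difference 1.24 ± 0.26, limma adjusted p = 0.0331). That call was lost in 8 of 21 alternative settings, 7 of which left out 1 array (knockout H replicate 4 or 5, any knockout L, or either control; adjusted p 0.00484 to 0.298 over all 21). As a protein the factor is controlled mainly by its stability, which arrays do not measure.

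Another 39 targets of the factor outside the module had a median of -0.01, with 1 higher and 3 lower past the threshold. Mif, a cytokine, rose from 558 and 530 in the controls to between 745 and 945 in the knockouts (0.62 ± 0.11, limma adjusted p = 0.0216). Angptl4, an inhibitor of lipoprotein lipase that also answers to fatty acids, fell from 128 and 218 to between 33.2 and 56.3 (-1.62 ± 0.20, limma adjusted p = 0.00935). Cdkn1a, the cell cycle inhibitor p21, fell from 964 and 970 to between 459 and 648 (-0.70 ± 0.14, limma adjusted p = 0.0291). Plod2, a collagen lysyl hydroxylase, fell by 0.62 on the log2 scale in the fit (limma adjusted p = 0.0226), though only 5 of 8 knockouts lay below both controls.

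Of 17 other glycolysis genes, the fructose transporter Slc2a5 was the 1 past the threshold, lower in knockouts (-0.95, limma adjusted p = 0.0273), and the median was 0.01. All 7 gluconeogenesis genes had estimates below 0 (median -0.50), and 3 passed. Fbp1, fructose bisphosphatase, fell from a mean of 164 ± 88.9 (SD, n = 2) in the controls to 47.0 ± 8.55 (n = 8) in the knockouts (-1.44 ± 0.22, limma adjusted p = 0.0150). The glucose-6-phosphate transporter Slc37a4 fell by 0.79 and G6pc, glucose-6-phosphatase, by 0.64 on the log2 scale, the latter close to the array medians (30.7 and 26.1 in the controls). In each of the 3, the 8 knockouts were without exception lower than the controls.

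At the entry of pyruvate into mitochondria, 3 of 10 genes passed. Pdk2, a kinase of the same family as Pdk1, fell from 144 and 121 to between 42.8 and 78.2 (-1.10 ± 0.18, limma adjusted p = 0.0174). Dlat and Dld, subunits of the pyruvate dehydrogenase complex, rose by 0.39 and 0.40 on the log2 scale (limma adjusted p = 0.0475 and 0.0413), and these calls were lost in 13 and 12 of 21 alternative settings, among them the lower range alone. None of 23 subunits of oxidative phosphorylation passed in limma (median 0.01), and those with the smallest p were Sdhd (0.25, unadjusted p = 0.0161) and Uqcrc2 (0.15, 0.0380). Of 20 genes of the unfolded protein response, which handles misfolded protein where Ero1a works, only Trib3 passed, lower in knockouts (-0.38, limma adjusted p = 0.0350), and the median was -0.01. Each call on these lists was lost without control replicate 1, since no gene passed then, and every one but those of Fbp1 and Slc37a4 without control replicate 2. Without knockout H replicate 4 every call but that of Angptl4 was lost, and without knockout L replicate 3 every call but those of Angptl4 and Fbp1.

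**Figure D5:**
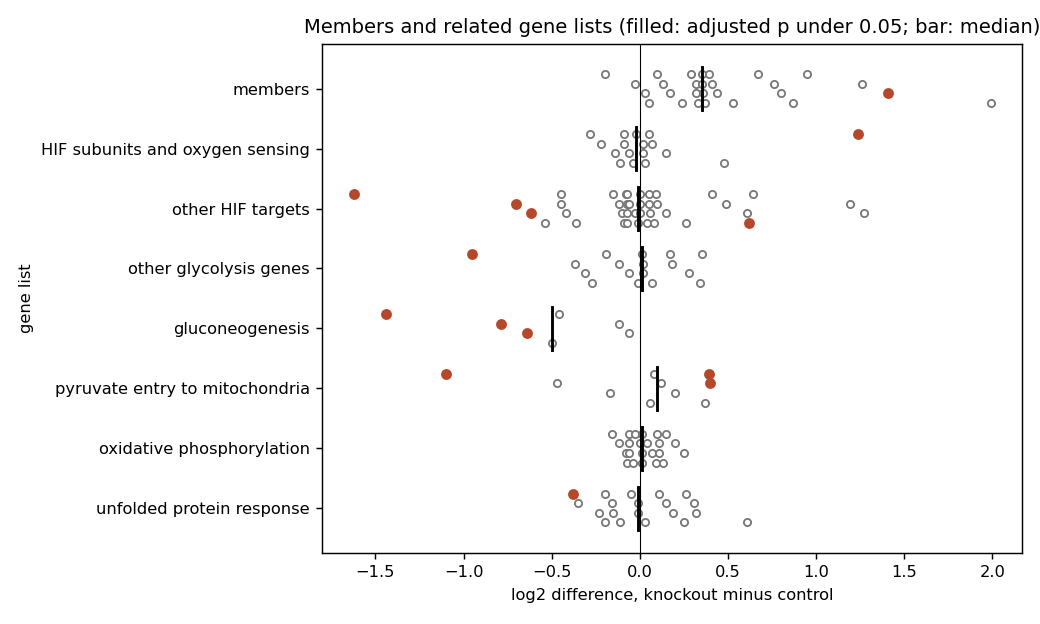
Log2 difference between knockouts and controls (x axis) of single genes (points) on the module and on 7 related gene lists (y axis); filled points have adjusted p under 0.05 and bars give the median of each list. The module has a median of 0.36 and gluconeogenesis of -0.50, while the other 6 medians lie between -0.02 and 0.10.

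The comparison of knockouts H with knockouts L set apart the letters in the titles, whose meaning the labels do not give. None of the 28 members passed in limma, and none of the 13644 genes did (0.00%; 303 genes, or 2.22%, had an unadjusted p under 0.05, 1.13% lower in H, among them 1 member). Estimates were above 0, higher in H, for 9 of 28 members, beside 50% of all genes. The member at that level was Higd1a, with 686, 407, 937, 551 and 748 in knockouts H and 1013, 611 and 1225 in knockouts L, which overlap, and a log2 difference of -0.83 with a confidence interval from -1.49 to -0.17 (limma unadjusted p = 0.0197). For Ddit4 all 5 knockouts H lay below all 3 knockouts L (166 to 222 and 222 to 247), by under 1 unit between the closest pair. It was the 1 member of 28 with no overlap (3.57%, beside 0.652% of all genes, and 0.901% with H above L, where no member stood), and its estimate was -0.27 (-0.56 to 0.01). Ero1a differed by -0.13, with a confidence interval from -0.78 to 0.52, and Egln3 by -0.61 (-1.72 to 0.50), so these arrays leave room for sizeable differences between H and L.

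Between the number ranges, 5 upper and 3 lower knockouts, no member passed in limma, while 41 of all genes did (0.300%). At an unadjusted p under 0.05 stood 2 members, both lower in the upper range, beside 10.2% of all genes at that level in either direction and 4.83% that were lower. Estimates above 0 were found for 7 of 28 members, beside 48.6% of all genes. Pfkl was 237 ± 40.4 (SD, n = 5) in the upper and 325 ± 64.9 (n = 3) in the lower range (limma unadjusted p = 0.0205), and Ndrg1 270 ± 77.2 and 370 ± 28.9 (0.0471). Between M and F no member passed, beside 3 genes in all (0.0220%), and none had an unadjusted p under 0.05 (4.83% of all genes did, 2.18% higher in M). Estimates lay above 0 for 24 of 28 members, beside 47.1% of all genes.

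Within the knockouts the members were uneven. Egln3 spanned 4.45 times between the lowest and the highest knockout, Slc2a1 3.24 and Ero1a 2.43, while the measured enzymes of upper glycolysis spanned 1.37 (Tpi1) to 2.39 (Pfkl) and those of lower glycolysis and pyruvate fate 1.33 (Pgam1) to 3.26 (Pdk1). A few arrays accounted for the extremes. Knockout H replicate 3 was the highest of the 8 knockouts for 8 members and knockout H replicate 2 the lowest for 19. The lowest of all 10 arrays was control replicate 1 for 17 members and knockout H replicate 2 for 9. These counts were not taken over all genes, so whether they are particular to the module was not tested. Knockout H replicate 2 was also the array with the highest sums of the alveolar and club cell markers (14997, beside 5943 and 6096 in the controls), of endothelium (735, beside 389 and 409) and of macrophages and neutrophils (4177, beside 2297 and 2831). It was the lowest of all arrays for the sum of goblet cell markers (34994), where knockout H replicate 3 was the highest (51839), and Retnlb read 355 in it and 937 to 6919 in the other knockouts. The sums of the other glycolysis genes (1779), of gluconeogenesis (836) and of oxidative phosphorylation (41300) were lowest in it as well. Those of the unfolded protein response (15927), lymphocytes (5510) and erythrocytes (96.5) were highest in it. The part of these markers in its low values was not tested. With knockout H replicate 5, the next highest in lung transcripts, left out as well, 4 members passed (Aldoa, Egln3, Ero1a and Ldha), all higher. Beside them, 2.99% of all genes were called and 0.975% called higher. This setting was chosen after the low values of knockout H replicate 2 were seen, so its count is no separate support.

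Different probe sets of a gene mostly had estimates of one sign and differed in size. Over 1 probe set was present for 18 members. Of the 31 further probe sets above the level of the filter, 29 had an estimate of the same sign as the one used. Adm gave 0.80 and 0.40, and Pfkl 0.67, 0.51 and, from a probe set below the array medians, 0.10. The 2 of opposite sign were probe sets of Pfkp (0.31, beside -0.03) and Pdk1 (-0.07, beside 0.24).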

How the data were processed

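Arrays of total RNA from 8 Cftr knockouts and 2 controls were analysed. Per the values the authors deposited, each probe set has 1 intensity on a linear scale. How background and normalization were handled is not given in the sources used here. Since medians were 18.4 to 18.9 on all arrays, none was added. Of 45101 probe sets, 64 array controls, 932 with several gene symbols and 9160 with none were left out. The other 34945 (34741 with symbols updated through RefSeq, GRCm38.p6) gave 18193 genes at the brightest probe set each, of which 13644 had a mean log2(intensity + 16) above the 25th percentile (4.89). The pseudocount of 16 understates differences of dim genes.

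Differences were fitted over all genes with limma 3.58.1 (lmFit, eBayes; R 4.3.3), with covariates for number range and letter, and Benjamini-Hochberg adjusted p under 0.05 as the threshold; folds are adjusted estimates on that scale. H versus L, the ranges and the letter came from a fit of 3 groups. The fit was tested on simulated independent values with changes larger than the estimate of any member, so that test does not cover effects of their size. Arrays have no read depth; their number, above all of controls, limits precision. All members are accounted for; of each pathway list the genes past the threshold are named, or else the 2 with the smallest p. Members and lists were chosen with earlier results of these data known. Alternative settings changed the pseudocount (1, 64), filter, normalization, probe set rule, covariates, prior and arrays. Plots used matplotlib 3.10.9.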

Additional observations from a re-analysis of the deposited data

Results flagged for a closer look

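For each of the 28 members, the 5 knockouts H and all 8 knockouts were examined by Dixon's test, 56 nested sets that are not independent, where chance gives about 1 in 20 in a single set. It gave 5 hits, of which Pkm gave 1 in each of its sets. Knockout H replicate 2 was low for Pkm (618, with the next lowest at 924 among knockouts H and 907 among all knockouts) and for Pdk1 (40.1, next lowest 87.5). Knockout H replicate 3 was high for Pfkfb3 (70.2, next highest 43.3). Knockout H replicate 1 was low for Slc2a3 (8.75, next lowest 12.9), at a level below the array medians.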

How the results depend on the processing

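For knockout versus control, 588 genes and 1 member passed. Without covariates these were 1366 and 6, and in the lower number range alone 1014 and 6. With a pseudocount of 64 and with no filter on dim genes, 0 members passed in limma (12 had an unadjusted p under 0.05 in each). Leaving out 1 array gave 0 to 813 genes and 0 to 3 members. The 0 genes came without control replicate 1, where 1783 genes and 2 members had an unadjusted p under 0.05, and the lone control was assumed to vary like the other groups; without control replicate 2, knockout H replicates 4 and 5 and knockout L replicate 3 the counts were 57, 121, 263 and 191. Without knockout H replicates 2 and 5 together, a setting chosen after seeing the data, 408 genes and 4 members passed. H versus L gave 0 members and 0 genes in all settings run. Upper versus lower range gave 41 genes and 0 members; the genes were 26 with a pseudocount of 1, 13 with the mean of all probe sets, 150 with the range as only covariate, 1 without knockout H replicates 2 and 5, and 0 to 44 with 1 array left out. Of the 28 members, 22 kept the sign of their knockout versus control estimate in every setting run. The sign turned for Ankrd37 (0.04 without covariates, -0.82 to 0.32 with 1 array left out), Ndrg1 (-0.22 and -0.00 to 0.23), Pfkp (0.07 with the mean of all probe sets, 0.04, 0.12 and 0.02 without covariates, control replicate 2, or knockout H replicates 2 and 5), Slc2a3 (-0.01 without covariates, -0.16 to 0.19 with 1 array left out), Higd1a (-0.03 to 0.68 with 1 left out) and Vegfa (-0.23 to 0.39 with 1 left out, -0.18 without knockout H replicate 5, -0.20 without knockout H replicates 2 and 5). The cause was not tested. No paired analysis was possible because the replicate numbers follow the order of deposit and pair no animals.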

Other observations

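Some targets of the hypoxia-inducible factors outside the module had estimates above 0 without passing in limma. They were chosen after their values were seen, and for being higher. Of the 39 targets tested outside the module, 18 had estimates above 0 and 21 below. Ak4, a mitochondrial adenylate kinase, had a log2 difference of 1.27 ± 0.55 (limma adjusted p = 0.248) and Fam162a, a mitochondrial growth and transformation-dependent protein, 1.19 ± 0.30 (0.0615). The circadian repressor Bhlhe40 stood at 0.64 ± 0.15 (0.0509) with all 8 knockouts above both controls. The lactate exporter Slc16a3 stood at 0.61 ± 0.18, with 7 of 8 above both. Chosen in the same way, Epas1 is not one of these targets but an alpha subunit of the factor, known from lung and endothelium. It read 410 and 505 in the controls and 449 to 829 in the knockouts (0.48, limma adjusted p = 0.251). Its highest values were in knockouts H replicates 5 and 2 (829 and 779), the arrays with the most lung transcripts.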
